A study of Mus musculus with 69 samples.

Results

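The 24 h between 48 h and 72 h of mosaic gastruloid culture were examined in WT cells that had only WT neighbours. The members were the 12 libraries of WT cells sorted from WT+WT gastruloids at these times, out of 69 libraries in all, and were selected by their labels for genotype, neighbour and time. Gastruloids are aggregates of mouse embryonic stem (mES) cells that mimic parts of gastrulation. Both clones came from the male E14Tg2A mES cell line. WT-mCherry carried an H2B-mCherry reporter driven by EF1a and WT-emiRFP an H2B-emiRFP670 reporter driven by CAG, both in piggyBac transposons, and each was a line grown from a single cell. WT+WT gastruloids were seeded with 150 cells of each clone in N2B27 medium, and FACS separated the clones again. Each clone had 3 replicates per time point. The groups compared with them came from WT+p53KO gastruloids, seeded with 150 WT-mCherry and 25 p53KO-emiRFP cells, and consisted of 6 libraries of p53KO-emiRFP cells and 6 of their WT-mCherry neighbours at the same times. The p53KO-emiRFP line was a subclone of WT-emiRFP with a homozygous frameshift in Trp53. Gastruloids of both kinds were left undisturbed until 48 h. Those grown further then received fresh N2B27 medium with the Wnt agonist ChIR from 48 h to 72 h. The passage of time, the pulse and the fresh medium therefore cannot be told apart.

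ChIR blocks the kinase that marks β-catenin for destruction. β-catenin then accumulates and acts with TCF/LEF factors on Wnt target genes. In the embryo, Wnt and Nodal signals start the primitive streak in the posterior epiblast, where Brachyury (T) appears, cells loosen their epithelial contacts and the first Cdx and Hox genes come on. The epiblast before this step is formative, with Otx2, Pou3f1, Fgf5 and de novo DNA methyltransferases, whereas the naive state of cultured mES cells depends on factors such as Esrrb, Klf4 and Nanog. p53 is a transcription factor that raises genes of cell cycle arrest and apoptosis.

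The 12 libraries held between 44049258 and 60166505 counts. Values of single libraries are counts divided by a size factor, and changes are log2 fold changes of 72 h against 48 h ± the standard error, with clone as a covariate, from edgeR's quasi-likelihood test over 17928 genes. A gene was called where its Benjamini-Hochberg adjusted p was under 0.05. Both clones were sorted from mosaic gastruloids, but the labels do not say whether those of one replicate number came from the same collection, and the test treats them as separate samples. The pluripotency markers Pou5f1, Sox2, Nanog and Utf1 were present in every library. Of the marker lists of other cell types, 1 member each of trophoblast (Prl3d1), blood (Hbb-bh1) and two-cell-like cells (Duxf3) had no count in any of the 12 libraries. Other members of these lists were detected.

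The interval changed a large part of the transcriptome. At 72 h 5946 genes were higher (33.2% of those tested) and 6147 were lower (34.3%), with a median absolute log2 fold change of 0.53 among the called genes. The median over all tested genes was -0.013. When tested against a minimum absolute log2 fold change of 1, 1010 genes rose (5.63%) and 746 fell (4.16%). These are called large rises and large falls below. For each gene list the counts stand against these shares, and a list with a similar share does not stand out from all tested genes. Of 11557 called genes that could be tested in each clone alone, 8182 were also called in the same direction in both. These genes were called on the libraries of both clones together, so the clones are not independent of the call.

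**Figure D1:**
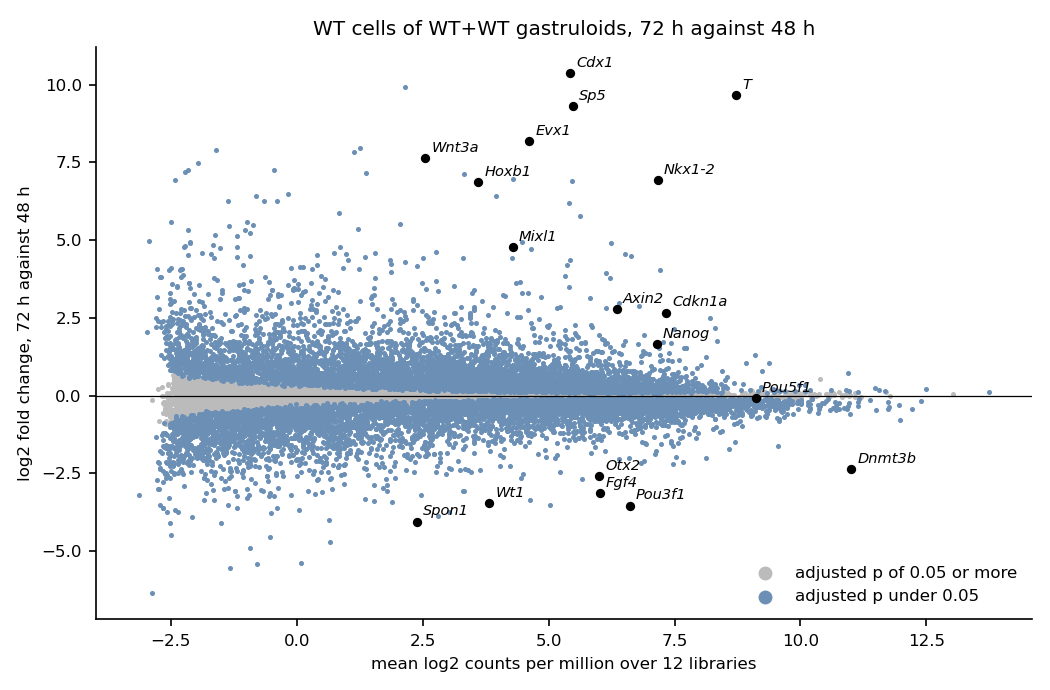
Each point is 1 of the 17928 tested genes, with its mean log2 CPM (counts scaled to library size) over the 12 libraries of WT cells on the x axis and its log2 fold change of 72 h against 48 h on the y axis. Coloured points had an adjusted p under 0.05; the rises reached 10.37 (Cdx1), whereas the largest fall among the labelled genes was -4.06 (Spon1).

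Primitive streak transcription factors were among the largest rises. Of 21 tested members 16 rose and 1 fell, and their median log2 fold change was 3.59, against -0.013 for all tested genes. 15 of the rises were large. In bulk samples like these, more cells of a type and more RNA per cell cannot be told apart.

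T, the gene of Brachyury and the defining factor of the streak (chr17:8434423-8442496, forward strand, GRCm38), had normalised counts from 46.4 to 68.1 (median 56.3) at 48 h and from 37415 to 58403 (median 45240.5) at 72 h. Every library at 72 h lay far above every library at 48 h (log2 fold change 9.67 ± 0.11, edgeR adjusted p = 2.2e-18), a change of 812-fold. Sp5, a zinc finger factor of the Wnt response (chr2:70474923-70477729, forward strand), had counts from 4.92 to 10.6 (median 7.10) at 48 h and from 3359 to 6684 (median 4563) at 72 h. The groups were as widely apart (9.30 ± 0.25, edgeR adjusted p = 2.4e-14).

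Cdx1, a homeobox gene of the posterior body, was at the limit of detection before the pulse, with counts from 1.15 to 4.73 (median 3.63) at 48 h and from 3173 to 7096 (median 4473) at 72 h. It had the highest log2 fold change of all tested genes (10.37 ± 0.32, edgeR adjusted p = 1.2e-13). Its relative Cdx2 had counts from 33.5 to 50.2 (median 38.8) at 48 h and from 3165 to 6551 (median 4865) at 72 h, without overlap (6.90 ± 0.20). Evx1, a homeobox gene of the proximal posterior streak, rose from 4.71–13.8 to 1889–3481 (8.19 ± 0.20). The antisense gene Evx1os rose with it (7.13 ± 0.20). The strand setting of the deposited counts is not given in the sources used here, so reads of this pair cannot be told apart.

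Mixl1, a homeobox factor of early mesendoderm, had counts from 48.2 to 92.5 (median 79.2) at 48 h and from 1295 to 2867 (median 1978) at 72 h. All 6 libraries at 72 h were above those at 48 h (4.77 ± 0.15, edgeR adjusted p = 1.7e-13). Eomes, a T-box factor that acts with Nodal in mesendoderm, changed less, with counts from 349.7 to 424 (median 370.0) at 48 h and from 742 to 1585 (median 1062) at 72 h and again no overlap (1.58 ± 0.15, edgeR adjusted p = 1.6e-07). Genes of the anterior streak were also higher. Foxa2 rose from 30.3–50.5 to 276–482 (3.11 ± 0.14) and Gsc from 3.53–11.7 to 54.6–180.4 (3.59 ± 0.30). Nkx1-2, a marker of the caudal epiblast, rose from 103–160.5 to 12794–18205 (6.92 ± 0.12).

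Msgn1, a factor of paraxial mesoderm, had counts from 0 to 1.89 (median 0.492) at 48 h and from 6.69 to 70.7 (median 32.7) at 72 h, without overlap but with 4 counts in all at 48 h (5.45 ± 0.64, edgeR adjusted p = 1.3e-06). Gata4, of cardiac mesoderm and endoderm, rose from 145–261 to 263–468 (0.82 ± 0.076). Tbx6, which also directs paraxial mesoderm, had counts from 57.7 to 73.9 (median 65.3) at 48 h and from 63.3 to 81.7 (median 72.1) at 72 h, and the groups overlapped (log2 fold change 0.15 ± 0.11, edgeR adjusted p = 0.22). Sox17 of the endoderm (0.42), Hand1 (0.31) and Gata6 (0.05) were not called either. Mesp2, a gene of somite segmentation, was the one member that fell (-0.57 ± 0.12). Mesp1, which marks the first cardiac mesoderm, stayed below the filter on low counts, with at most 14.9 normalised counts.

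**Figure D2:**
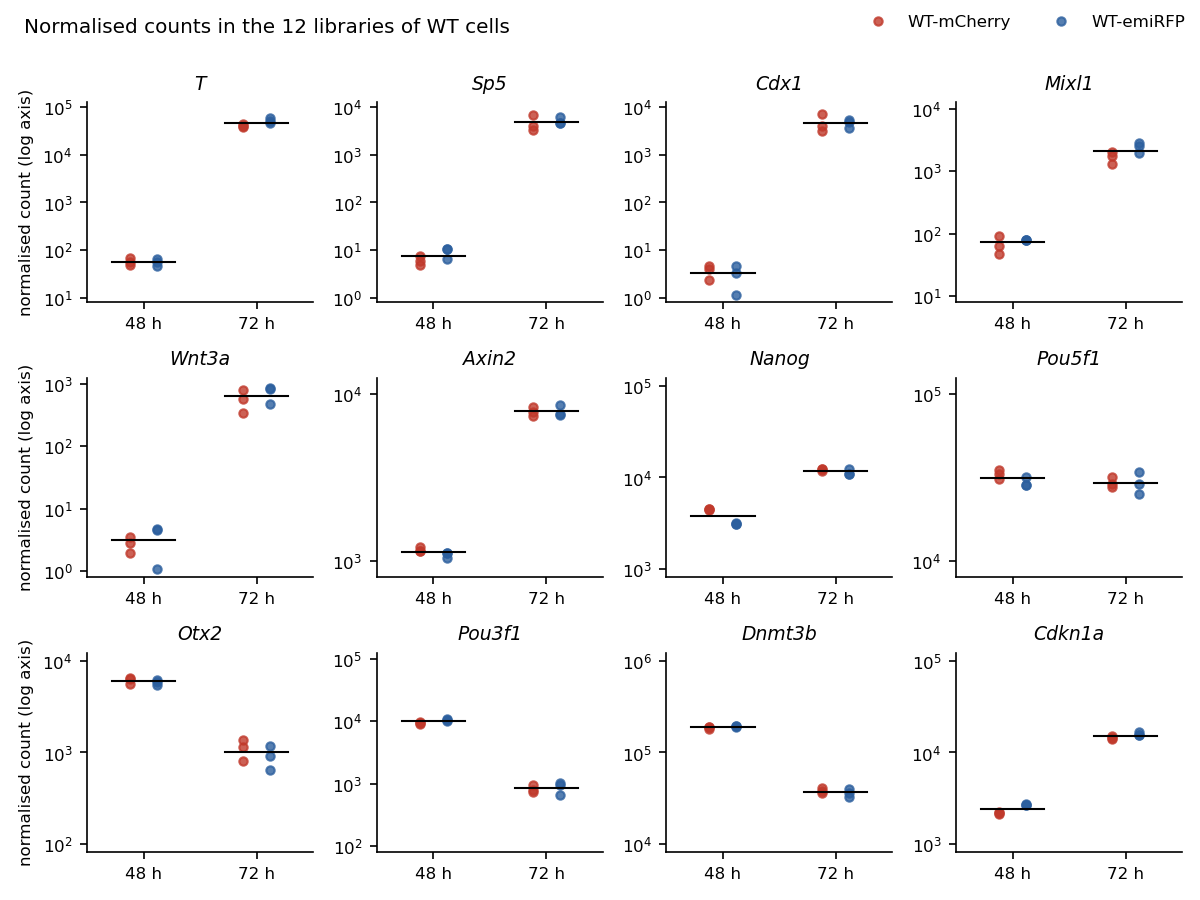
Normalised counts of 12 genes in each of the 12 libraries, on log axes of different range. Points are libraries coloured by clone and lines are means of the 6 libraries of a time point; T went from 46.4–68.1 to 37415–58403 and Cdx1 from 1.15–4.73 to 3173–7096, and Pou5f1 overlapped between the time points.

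Wnt ligands changed in 1 direction where they were called. Of 16 tested members 11 rose and 0 fell, and their median log2 fold change was 2.22, with 9 large rises. Wnt3, the ligand required for streak formation, had counts from 130.4 to 199 (median 172) at 48 h and from 1739.8 to 2501 (median 1999) at 72 h (3.61 ± 0.087, edgeR adjusted p = 7.7e-15). Wnt3a, which maintains caudal progenitors, had counts from 1.10 to 4.71 (median 3.18) at 48 h and from 341 to 849.8 (median 677) at 72 h (7.63 ± 0.34, edgeR adjusted p = 9.0e-12). For both ligands the groups were fully separate.

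Wnt8a, another canonical ligand of the streak, rose from 298–534 to 7597–12110.5 (4.55 ± 0.065). Wnt5b rose from 202–257 to 1913–2612 (3.31 ± 0.090), Wnt11 rose from 10.6–17.3 to 191–326 (4.08 ± 0.16) and Wnt6 rose from 13.0–30.5 to 254–542 (4.24 ± 0.24). Wnt11 and Wnt5b act mainly through non-canonical routes that steer cell movement. The 5 uncalled ligands, Wnt7a, Wnt7b, Wnt16, Wnt2b and Wnt8b, had log2 fold changes between -0.35 and 0.55.

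Among 30 Wnt targets and feedback genes, 17 rose and 7 fell, and the median was 0.55. Axin2, a negative regulator and the most used reporter of canonical Wnt activity, had counts from 1052 to 1212 (median 1138) at 48 h and from 7365 to 8533 (median 7689.6) at 72 h. The groups were clearly apart (2.79 ± 0.048, edgeR adjusted p = 1.4e-16), a change of 6.90-fold. Inhibitors of the pathway changed in both directions. The secreted antagonists Dkk1 (3.30 ± 0.19), Dkk4 (5.58 ± 0.42, with 5 counts in all at 48 h and 280 at 72 h) and Notum (2.33 ± 0.14) were higher, and so were the intracellular inhibitor Nkd1 (2.53 ± 0.062) and the ubiquitin ligases Rnf43 (2.23 ± 0.12) and Znrf3 (0.65 ± 0.054), which remove Wnt receptors. Other antagonists fell, namely the secreted Sfrp1 (-0.78 ± 0.065), Sfrp2 (-0.32 ± 0.063) and Sfrp5 (from 30.5–54.1 to 15.2–26.5 counts), and Nkd2, the relative of Nkd1 (-0.27 ± 0.061).

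Receptors and effectors split. Fzd10 rose from 419–523 to 8008–12047 (4.50 ± 0.082), whereas Fzd7, the main Frizzled of epiblast cells, fell from 15566–17218 to 3481–4562 (-1.97 ± 0.050). Tcf7l1, the repressive TCF of pluripotent cells, fell from 4468–5433 to 1108–1676 (-1.84 ± 0.078) and Tcf7, an activating one, rose moderately (0.46 ± 0.036). Lef1, which is often used as a Wnt target, had counts from 4110.3 to 5274 (median 4619) at 48 h and from 4366 to 5073 (median 4857) at 72 h, and the groups overlapped. Its log2 fold change was 0.03 ± 0.049 with a 95% interval of -0.07 to 0.14 (edgeR adjusted p = 0.59). Myc, Ccnd1, Lgr4, Bambi and Wif1 were not called, while Ccnd2, a cyclin of early G1, rose from 296–479 to 3393–5563 (3.49 ± 0.13).

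The 250 bases before the RefSeq start of T and of Sp5 are shown because these 2 factors had among the largest rises and hold a match to the TCF/LEF core in this window, 228 bases before the start in T and 97 in Sp5. Coordinates are those of GRCm38.p6, both genes are on the forward strand, and capitals mark the match.
T, chr17:8434173-8434422: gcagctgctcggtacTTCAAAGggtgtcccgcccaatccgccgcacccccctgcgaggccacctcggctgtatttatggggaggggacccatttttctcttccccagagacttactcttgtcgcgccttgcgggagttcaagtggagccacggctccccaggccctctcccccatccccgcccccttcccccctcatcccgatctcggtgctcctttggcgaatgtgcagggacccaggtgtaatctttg
Sp5, chr2:70474673-70474922: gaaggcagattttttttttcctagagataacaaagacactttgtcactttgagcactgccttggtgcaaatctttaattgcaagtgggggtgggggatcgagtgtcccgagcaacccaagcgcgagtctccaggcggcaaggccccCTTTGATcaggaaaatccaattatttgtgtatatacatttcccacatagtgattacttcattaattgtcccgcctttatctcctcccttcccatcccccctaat

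In T the capitals are CTTTGAA read on the other strand, and in Sp5 they are CTTTGAT. The letters were chosen with the sequence of T in view, and both strands of 250 bases before and 50 bases after the start were searched. CTTTGAT was found in 4.29% of 27025 genes of the promoter table, in 3.09% of the 12419 tested genes with a promoter, in 4.31% of the 696 with a large rise, and in 2.39% of 503 with a large fall. CTTTGAA was found in 5.93%, 4.49%, 6.47% and 4.77% of the same sets. The T-box core TCACACCT occurred in 1.48%, 1.11%, 2.16% and 1.79%, and the FoxH1 site AATNCACA in 4.19%, 2.71%, 3.59% and 3.38%. Other members with CTTTGAT were Tnfrsf19, Foxa2, Msgn1, Wnt11 and Wnt5b, and Sp8, Dkk1 and Msgn1 held CTTTGAA. For each of the 4 motifs the share among the large rises was above that of all tested genes, and for all but CTTTGAT so was that among the large falls. These shares were not tested, and a match is not evidence of binding.

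The first Hox and Cdx genes came up from low levels, several of them near the limit of detection. The 15 members that passed the filter had a median log2 fold change of 6.24, and a member could pass through its level at 72 h alone. Hoxd3, Hoxd4, Hoxb5 and Hoxb6 did not pass it. Hoxb1 had counts from 5.91 to 16.1 (median 11.6) at 48 h and from 882 to 1817 (median 1303) at 72 h (6.86 ± 0.27, edgeR adjusted p = 2.4e-12). It is a 3′ member of its cluster, and its groups did not overlap.

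Other members of the clusters were measured with fewer reads. Hoxa3 rose from 0–3.53 to 153–356 (7.95 ± 0.42) and Hoxb2 from 0–2.21 to 46.8–116 (6.24 ± 0.47). Hoxa2 had 2 counts in all 6 libraries at 48 h and 426 at 72 h, a ratio of 210.5 with a 95% counting interval of 57.9 to 1744, which covers counting error only. Hoxb3 went from 2 to 112 counts (ratio 55.3, interval 15.0 to 463). Hoxb9, a more 5′ gene, had counts from 16.6 to 26.6 (median 21.8) at 48 h and from 62.8 to 129.6 (median 88.2) at 72 h and a smaller change (2.09 ± 0.19). Hoxa5 (6.47 ± 0.55) and Hoxb8 (5.23 ± 0.65) also rose, from 5 and 7 counts in all at 48 h. Hoxd1, a 3′ gene, had the smallest rise of the 15 tested members (1.62 ± 0.29). Hox clusters hold antisense and overlapping transcripts, so single members carry the same limit as Evx1.

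Genes of the Nodal pathway changed in both directions. Of 15 tested members 8 rose and 5 fell, and their median log2 fold change was 0.24. Over all tested genes 33.2% rose and 34.3% fell, and the share that fell in this list was near that background. Nodal itself had counts from 2192 to 2526 (median 2354) at 48 h and from 5327 to 7346 (median 6434) at 72 h, without overlap (1.42 ± 0.072, edgeR adjusted p = 4.8e-11). Its antagonist Lefty1 rose from 3569.9–5659 to 9982–20458 (1.69 ± 0.093). Lefty2, which is close in sequence to Lefty1, had counts from 797 to 1561 (median 1194) at 48 h and from 1221 to 1510.2 (median 1329) at 72 h. Its groups overlapped, and its log2 fold change of 0.20 ± 0.086 missed the threshold (edgeR adjusted p = 0.054, and 0.044 with the replicate number as a block; 95% interval 0.01 to 0.38). The related ligand Gdf3 fell (-0.93 ± 0.060), and the co-receptor Tdgf1 rose slightly (0.24 ± 0.065).

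In the BMP pathway 10 of 19 tested members rose and 5 fell, with a median of 0.99. Fst, the gene of the activin and BMP antagonist follistatin, had counts from 789 to 1094 (median 938) at 48 h and from 12873 to 18690.4 (median 15353) at 72 h (4.04 ± 0.061, edgeR adjusted p = 3.6e-17). The ligands Bmp5 (4.06 ± 0.49, with 5 counts in all at 48 h and 96 at 72 h), Bmp7 (2.50 ± 0.077) and Bmp2 (2.40 ± 0.22) rose, whereas Bmp4 was slightly lower (-0.35 ± 0.11). Of the Id genes, which are direct BMP targets, Id1 rose from 27.1–51.2 to 238–365 (2.79 ± 0.14), Id3 rose (1.38 ± 0.089) and Id4 rose (1.30 ± 0.14). Id2 fell instead, from 330.3–467 to 187–244 (-0.86 ± 0.097).

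FGF ligands changed in opposite directions. Fgf8, the ligand of the streak and caudal epiblast, had counts from 74.8 to 123 (median 108) at 48 h and from 1957 to 3550.3 (median 2715) at 72 h (4.71 ± 0.12, edgeR adjusted p = 1.2e-14), and Fgf17 of the same subfamily also rose (1.75 ± 0.13). Fgf4, the ligand of naive and epiblast cells, had counts from 5692 to 7151 (median 6327) at 48 h and from 460.3 to 1032 (median 742) at 72 h (-3.13 ± 0.10, edgeR adjusted p = 2.4e-13). The groups did not overlap for either gene. Fgf15 fell from 918–1045 to 128–239 (-2.38 ± 0.10) and Fgf3 fell from 89.3–116 to 21.2–40.2 (-1.85 ± 0.13). Over the 24 members of the pathway 11 rose and 10 fell, with a median of 0.08. The feedback genes of ERK signalling were mixed, with lower Spry4 (-0.97 ± 0.067) and Spry1 (-0.98 ± 0.073), higher Spred1 (1.37 ± 0.089) and an uncalled Etv4 (0.04).

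Notch and retinoic acid genes had no common direction. Of 16 Notch and segmentation clock genes 8 rose and 5 fell, among them the target Hes1 (1.72 ± 0.075), the inhibitory ligand Dll3 (1.41 ± 0.13) and, in the other direction, the ligands Dll4 (-2.59 ± 0.22) and Dll1 (-0.72 ± 0.082). Of 12 retinoic acid genes 4 rose and 5 fell, against 33.2% and 34.3% of all tested genes. The receptor gene Rarb, itself a retinoic acid target, had the highest log2 fold change of the list, from 6 counts in all at 48 h to 60 at 72 h (3.16 ± 0.55), the synthetic enzyme gene Aldh1a2 fell (-0.45 ± 0.12), and Cyp26a1, whose product clears retinoic acid, was not called (0.02).

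Genes of the formative epiblast fell together. Of 15 tested members 2 rose and 13 fell, and their median log2 fold change was -0.94. 6 of the falls were large. Pou3f1 (Oct6), a POU factor of the primed epiblast (chr4:124656807-124660655, forward strand), had counts from 9092 to 10738 (median 9739) at 48 h and from 664 to 1033 (median 864) at 72 h (-3.54 ± 0.087, edgeR adjusted p = 9.4e-15), a level 11.6-fold lower. Otx2, a homeobox factor of the anterior and formative epiblast, had counts from 5477 to 6564 (median 6044) at 48 h and from 636 to 1355 (median 1027) at 72 h (-2.59 ± 0.13, edgeR adjusted p = 4.9e-11). All libraries at 72 h were below those at 48 h for both genes.

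Dnmt3b, the de novo DNA methyltransferase of the epiblast, had counts from 181512 to 196893 (median 188944) at 48 h and from 32080.2 to 41038 (median 37001) at 72 h (-2.36 ± 0.055, edgeR adjusted p = 6.1e-15). Dnmt3a fell from 30085–32808 to 8579–11084 (-1.71 ± 0.046) and their cofactor Dnmt3l also fell (-1.14 ± 0.045). The maintenance enzyme Dnmt1 changed little (-0.11 ± 0.033). Of the Tet genes, whose products oxidise methylated cytosine, Tet1 fell (-1.09 ± 0.089) and Tet2 rose (0.66 ± 0.096). Fgf5, a ligand that marks the post-implantation epiblast, had counts from 3802 to 4498 (median 4109) at 48 h and from 1449 to 3112 (median 1941) at 72 h and a smaller fall (-0.94 ± 0.12, edgeR adjusted p = 2.4e-06). Of the formative genes, the ephrin receptor gene Epha2 rose (2.15 ± 0.070).

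Naive pluripotency factors went the other way. Of 16 tested members 12 rose and 3 fell, and their median log2 fold change was 0.90. Nanog had counts from 3109.5 to 4532 (median 3768) at 48 h and from 10786 to 12536 (median 12073) at 72 h and rose in both clones (1.65 ± 0.066, edgeR adjusted p = 2.5e-12). Gbx2, which is also a Wnt target and a gene of the posterior epiblast, rose most, from 160.2–214 to 1739–2469 (3.64 ± 0.10). Tfcp2l1 rose from 770.3–1184 to 2624–4267 (1.90 ± 0.10), Tbx3 rose from 335–447 to 1213–1495 (1.72 ± 0.075) and Esrrb rose from 2316–3958 to 4738–7608 (0.98 ± 0.040).

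Klf4 had counts from 139 to 208 (median 168) at 48 h and from 239.9 to 368 (median 322) at 72 h (0.86 ± 0.072, edgeR adjusted p = 2.2e-08), and the groups did not overlap. Fgf4, Dppa5a (-0.81 ± 0.056) and Dppa3 (-0.56 ± 0.086) fell. None of the 11 core factors shared by naive and primed cells rose, and 9 fell. Utf1, a chromatin factor, fell from 22082–26053 to 4589–7201 (-1.99 ± 0.069) and Sox2 fell from 7815–9206 to 3928–6895 (-0.72 ± 0.078). Pou5f1 (Oct4) had counts from 28615 to 34978 (median 31264) at 48 h and from 25302 to 33951 (median 28857) at 72 h, and the groups overlapped (log2 fold change -0.09 ± 0.065, 95% interval -0.23 to 0.05, edgeR adjusted p = 0.23).

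**Figure D3:**
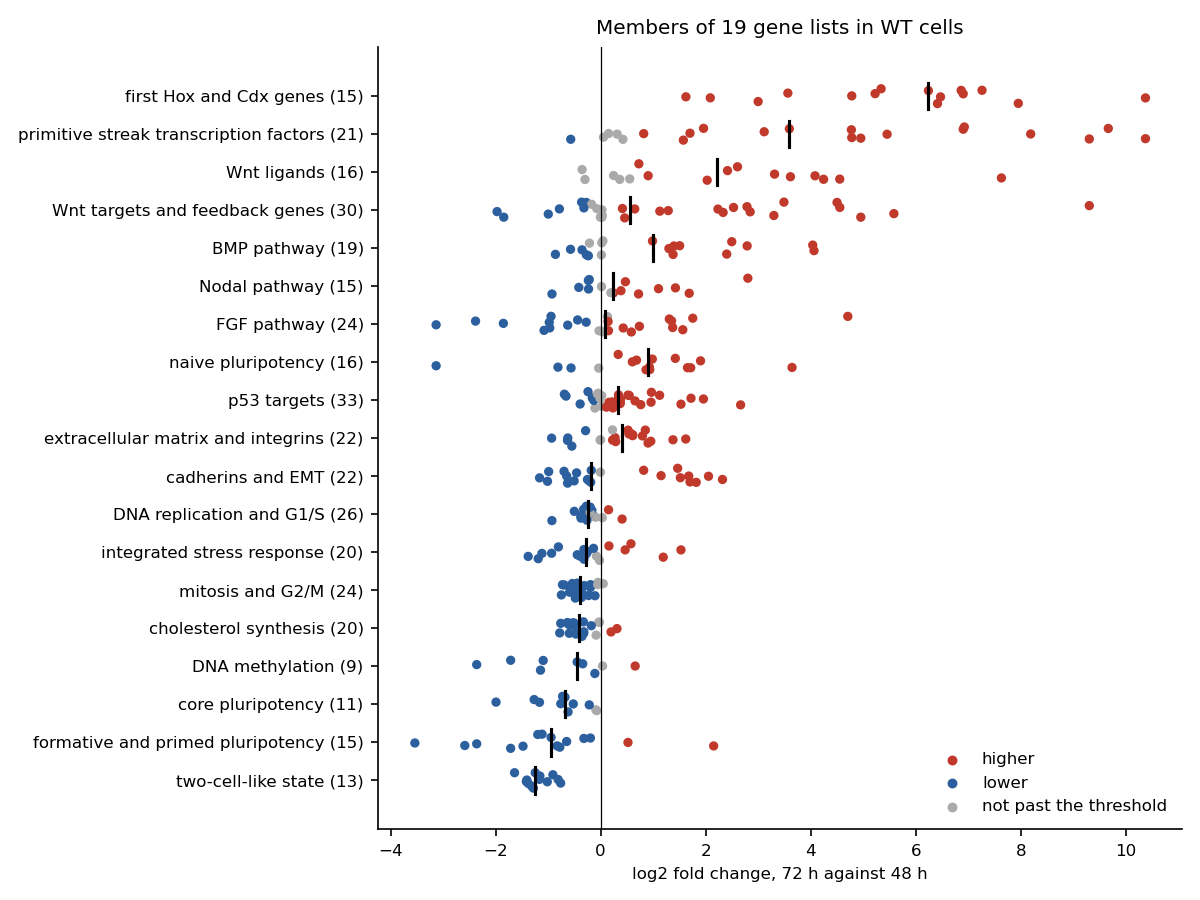
Log2 fold changes of 72 h against 48 h for the tested members of 19 gene lists in WT cells, with the number tested in brackets. Each point is a gene coloured by its call and black lines are medians, which ran from 6.24 for the Hox and Cdx genes to -1.25 for genes of the two-cell-like state.

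Of 22 genes of cadherins and the epithelial-mesenchymal transition 9 rose and 12 fell, with a median of -0.18. Cdh1 (E-cadherin), the adhesion molecule of epithelia, had counts from 42454 to 47606 (median 46458) at 48 h and from 30897 to 35283 (median 33739) at 72 h (-0.46 ± 0.041, edgeR adjusted p = 5.4e-08). Cdh2 (N-cadherin), its mesenchymal counterpart, had counts from 391 to 542 (median 458) at 48 h and from 1103 to 1877 (median 1472) at 72 h (1.68 ± 0.11, edgeR adjusted p = 7.5e-10). Neither pair of groups overlapped. The repressors of Cdh1 rose, namely Snai1 (1.70 ± 0.13), Zeb2 (2.32 ± 0.11), Zeb1 (1.52 ± 0.097) and Snai2 (1.47 ± 0.22), and so did the intermediate filament gene Vim, from 1439–1822 to 4758–6874 (1.82 ± 0.083). The epithelial regulators Grhl2 (-1.16 ± 0.038) and Esrp1 (-1.01 ± 0.034) fell, and fibronectin (Fn1) was not called.

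Of 22 genes of the extracellular matrix and integrins 14 rose and 5 fell, with a median of 0.40. The basement membrane collagens Col4a1 (0.96 ± 0.047) and Col4a2 (1.38 ± 0.068) and the hyaluronan synthase Has2 (1.62 ± 0.11) were higher. The laminin receptor subunit Itga6 was lower (-0.93 ± 0.046).

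Targets of p53 changed unevenly. Of 33 direct targets 21 rose and 6 fell, with a median of 0.34 and 4 large rises. Trp53 itself had counts from 15255 to 17164 (median 16401) at 48 h and from 14885 to 18528 (median 16345) at 72 h, and the groups overlapped (log2 fold change 0.01 ± 0.046, 95% interval -0.08 to 0.11, edgeR adjusted p = 0.81). Cdkn1a, the gene of the cell cycle inhibitor p21 (chr17:29090976-29100727, forward strand), had counts from 2135 to 2695 (median 2415) at 48 h and from 14169 to 16908 (median 15363) at 72 h. Its groups were far apart (2.67 ± 0.043, edgeR adjusted p = 8.4e-17), a change of 6.34-fold.

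Perp, a membrane protein of desmosomes and apoptosis, rose from 483–698 to 1841–2573 (1.96 ± 0.083) and the death receptor gene Fas rose from a low level, from 9.94–24.7 to 39.0–72.3 (1.72 ± 0.21). Ddit4, an inhibitor of mTORC1, rose from 5564–6557 to 14155–21158 (1.53 ± 0.062). Mdm2, whose product degrades p53 and which is a classical target, had counts from 9675 to 10874 (median 9898) at 48 h and from 9169.5 to 10202 (median 9867) at 72 h, with overlap (-0.04 ± 0.039, edgeR adjusted p = 0.32). The members that fell included the proapoptotic genes Pmaip1 (Noxa, -0.69 ± 0.056), Bbc3 (Puma, -0.39 ± 0.073) and Bax (-0.24 ± 0.057).

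The Bcl2 family, which sets the threshold of mitochondrial apoptosis, had 4 rises and 10 falls among 15 tested members. Bcl2, a prosurvival member, rose most (1.60 ± 0.11), while the prosurvival genes Mcl1 (-0.49 ± 0.045) and Bcl2l1 (-0.36 ± 0.040) fell. The proapoptotic BH3-only genes Bmf (-1.04 ± 0.085) and Bcl2l11 (-0.94 ± 0.042) fell most. Bad (0.50 ± 0.084) and Bak1 (0.26), both proapoptotic, rose.

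Genes of growth and division were slightly lower. Of 24 mitotic genes 21 fell and none rose, with a median of -0.40 and no large fall. Examples were Top2a (-0.75 ± 0.042), Ccnb1, the cyclin of mitotic entry (-0.69 ± 0.057), and Cdk1, its kinase (-0.56 ± 0.048). Of 26 genes of DNA replication and G1/S 21 fell and 2 rose (median -0.23), led by Ccne1, the cyclin of S phase entry (-0.93 ± 0.042). Of 30 genes of the Myc network and ribosome biogenesis 19 fell and 2 rose (median -0.26). Mycn, the main Myc gene of the epiblast, fell from 11417–13305 to 3908–6049.8 (-1.29 ± 0.056).

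Of the CDK inhibitors other than Cdkn1a, Cdkn2a (0.26 ± 0.067) and Cdkn2c (0.35 ± 0.14) rose by less than 1 log2 unit, Cdkn2b fell (-0.31 ± 0.091) and Cdkn1b (0.15), Cdkn1c (-0.12) and Cdkn2d (0.07) were not called. Metabolic genes were lower by similar amounts. Of 20 genes of cholesterol synthesis 15 fell and 2 rose (median -0.41), and of 25 glycolytic and hypoxia genes 15 fell and 4 rose (median -0.31). The glucose transporters changed in opposite directions, with a fall of Slc2a1 (-0.76 ± 0.049) and a rise of Slc2a3 (1.74 ± 0.077). Of 12 transcripts of the mitochondrial genome 7 fell (median -0.39). Their summed count ranged from 705498 to 765034 at 48 h and from 414839 to 764787 at 72 h, so the groups overlapped, and nuclear copies of these genes can take some of their reads.

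Of 20 genes of the integrated stress response, the programme of Atf4 that answers amino acid shortage and misfolded proteins, 13 fell and 5 rose. Nupr1 (-1.38 ± 0.088), Chac1, a glutathione-degrading enzyme (-1.19 ± 0.098), and Trib3, a pseudokinase (-1.12 ± 0.077), fell, whereas Atf3 (1.19 ± 0.091) and Ddit4 rose. Of 16 immediate early and heat shock genes 9 rose and 3 fell, with higher Jun (1.85 ± 0.18), Egr1 (1.56 ± 0.26), Fosb (1.50 ± 0.48) and Fos (1.30 ± 0.47). These genes also respond to dissociation and sorting, and the part of handling in their change was not tested.

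Markers of germ cells and of other lineages gave no uniform picture. Of 10 germ line genes 5 rose and 5 fell. Prdm14 rose from 16.2–47.3 to 55.7–108 (1.42 ± 0.13), Tfap2c rose (1.72 ± 0.087), Nanos3 rose (2.13 ± 0.25) and Kit rose (1.35 ± 0.077). Prdm1 (Blimp1), the first regulator of the lineage in the embryo, fell from 292–409.6 to 156–229 (-0.88 ± 0.090), and Dazl fell (-1.50 ± 0.10). Of 11 neural genes 4 rose and 4 fell, with lower Pax6 (-1.94 ± 0.11), Six3 (-1.61 ± 0.36) and Hesx1 (-1.17 ± 0.27), which mark the anterior neural plate, and higher Pax3 (1.57 ± 0.35) and Olig3 (2.52 ± 0.52, 12 and 72 counts in all), which mark dorsal neural tissue.

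The summed normalised counts of the extraembryonic endoderm list were between 3179 and 4424 at 48 h and between 2672 and 3484 at 72 h, and of 13 tested members 3 rose and 4 fell. Those of the trophoblast list were 636 to 736 and 467 to 535, with 1 of 9 higher and 2 lower. Those of the neural list were 4235 to 5496 and 6518 to 8712, with 4 of 11 tested members higher and 4 lower. For endothelium and blood they were 2801 to 3311 and 2373 to 3102, with 3 of 12 higher and 7 lower and a median of -0.66. Kdr, the VEGF receptor of early mesoderm, was among the 3 (2.55 ± 0.19). All 13 tested genes of the two-cell-like state fell (median -1.25). Many of these are near-identical copies, which unique mapping counts only in part, and their sum ranged from 1566 to 5014 at 48 h and from 844 to 1885 at 72 h, with overlap.

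Among genes of at least 1 mean log2 CPM that moved in the same direction in all 6 pairs of the same clone and replicate number, the 12 largest rises were Cdx1, Gm45889, T, Sp5, Evx1, Hoxa3, Sprr2a3, Wnt3a, Aplnr, Evx1os, Foxb1 and Nkx1-2. Gm45889 is a long non-coding RNA (chr7:142283210-142290418, forward strand) with 2 counts over the 6 libraries at 48 h and 2717 at 72 h, a ratio of 1343 with a 95% counting interval of 371 to 11091. Sprr2a3, a small proline-rich protein gene of a family of near-identical copies, rose from 0–2.35 to 113–401 (7.82 ± 0.43). Aplnr, the apelin receptor of early mesoderm, rose from 0–2.95 to 170.5–447 (7.16 ± 0.29), and Foxb1, a forkhead gene, rose from 10.6–23.2 to 1710.3–2526 (6.96 ± 0.13).

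The 12 largest falls were smaller in size. They were Spon1, Slc35d3, Ttbk1, Pou3f1, Miat, Wt1, Tnfsf11, Pcnx2, Car4, Lrtm2, Atcay and Fgf4, with log2 fold changes between -4.06 and -3.13. Spon1, a secreted matrix protein of the floor plate, had counts from 477 to 588 (median 543) at 48 h and from 24.5 to 46.9 (median 29.7) at 72 h (-4.06 ± 0.11, edgeR adjusted p = 2.4e-14). Miat, a long non-coding RNA, fell from 3025–3839.8 to 193–411 (-3.51 ± 0.13). Wt1, a zinc finger factor better known from the kidney and gonad, fell from 1375–1514 to 110.2–148 (-3.45 ± 0.058), and Car4, a membrane-bound carbonic anhydrase, fell from 2279.6–2826 to 132–309.7 (-3.37 ± 0.14). No group overlapped with its counterpart for these 4 genes.

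The interval was set among the others with the 6 libraries of WT cells at 0 h and the 18 of WT+WT gastruloids after 72 h. Consecutive intervals share libraries, so their tests are not independent, and no overlap between their called genes was computed. T was low at 0 h (84.2 ± 99.1, SD, n = 6) and still at 48 h (56.9 ± 8.47). It reached 46385 ± 7618 at 72 h, then 25599 ± 2983 at 96 h, and ended at 161 ± 53.4 at 144 h. It was thus highest at 72 h among the times sampled. Wnt3 was also highest at 72 h (2078 ± 341) and fell by 96 h (log2 fold change -2.51 ± 0.13, edgeR adjusted p = 2.0e-17). Wnt3a rose further to 6549 ± 513 at 96 h (3.37 ± 0.16, edgeR adjusted p = 7.5e-18).

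Cdx1, Hoxb1 and Hoxb9 had not reached their highest level at 72 h. Cdx1 went from 4719 ± 1446 to 23743 ± 1495 by 96 h, Hoxb1 from 1324 ± 408 to 9541 ± 761 and Hoxb9 from 94.3 ± 25.3 to 4712 ± 812. Tbx6 rose in the next interval, from 72.2 ± 7.23 to 8258 ± 1262 (6.83 ± 0.14, edgeR adjusted p = 7.7e-27). Msgn1, which had already risen by 72 h, rose further from 38.6 ± 24.9 to 7829 ± 919 (7.76 ± 0.26, edgeR adjusted p = 6.6e-22).

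Several genes of the interval reversed the change of the preceding one. Pou3f1 rose from 411 ± 89.7 at 0 h to 9896 ± 639.9 at 48 h (4.62 ± 0.12, edgeR adjusted p = 1.6e-25) and was at 852 ± 144 at 72 h. Dnmt3b rose before 48 h (3.43 ± 0.071, edgeR adjusted p = 2.7e-28) and Fgf5 did too (5.89 ± 0.18, edgeR adjusted p = 6.3e-24). Nanog fell from 40118 ± 2391 to 3798 ± 738 before it rose to 11784 ± 784. It therefore stayed below its level in mES cells.

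Esrrb at 72 h (6231 ± 1349.7) and Klf4 (312 ± 58.3) were likewise below their levels at 0 h (49432 ± 4125 and 10933 ± 818). Gbx2 was above it (2184 ± 304 against 1131 ± 47.3). Cdkn1a was highest at 72 h (15274 ± 971) and fell by 96 h (-1.41 ± 0.079, edgeR adjusted p = 3.1e-16) to 5755 ± 451. Fgf4 was lowest at 72 h (744 ± 236) and rose again by 96 h (2.68 ± 0.091, edgeR adjusted p = 7.6e-22).

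**Figure D4:**
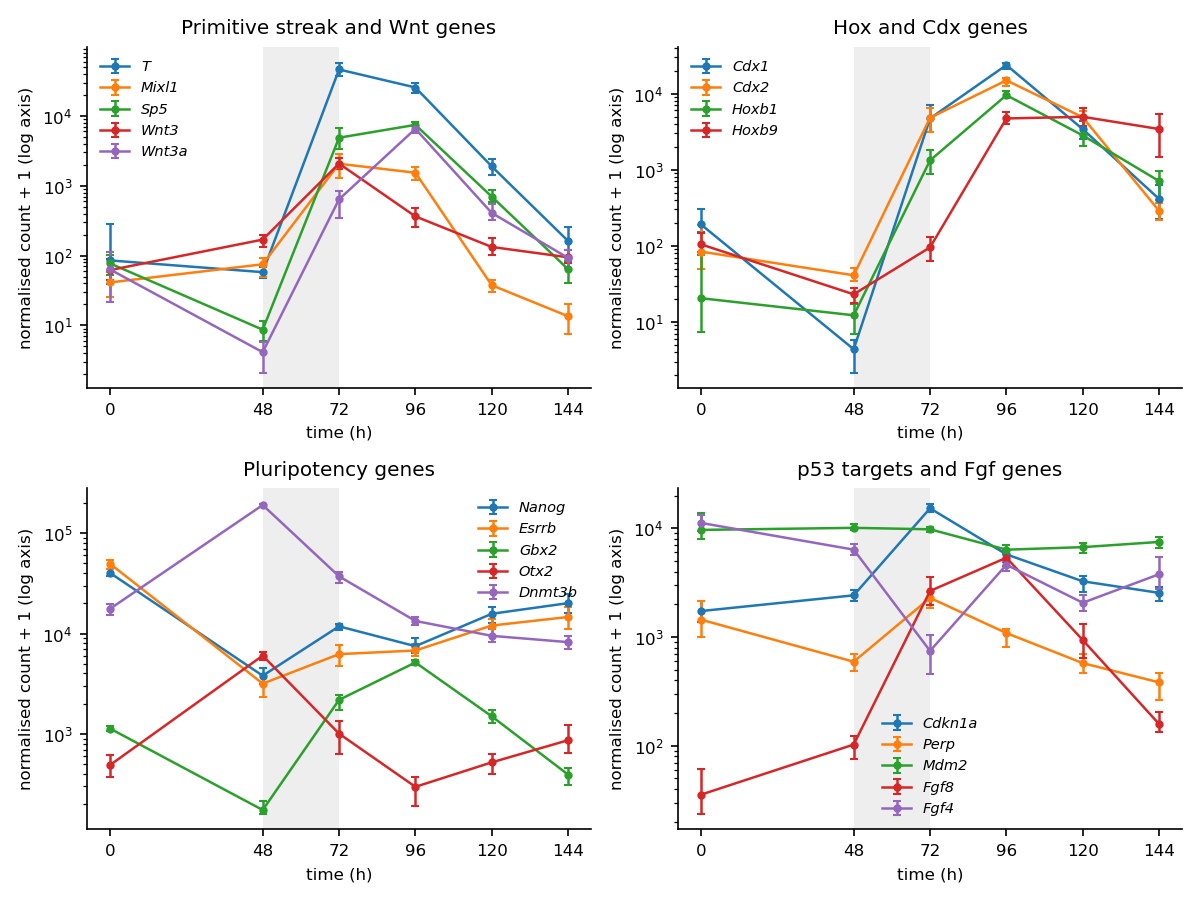
Mean normalised count plus 1 (log axis) of WT cells from 0 h to 144 h, with bars from the lowest to the highest of 6 libraries and the interval from 48 h to 72 h shaded. T, Wnt3 and Cdkn1a were highest at 72 h, Cdx1 and Hoxb1 at 96 h, and Otx2 and Dnmt3b at 48 h.

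Few genes changed differently in the 2 WT clones. The interaction of clone and time called 2 genes (0.0112% of 17928) and 60 (0.335%) with the replicate number as a block, and 1060 had an unadjusted p under 0.05. Enpp2, the gene of autotaxin, which makes lysophosphatidic acid, fell from 9118–9524 to 2399–2769 in WT-mCherry and from 9031–9586 to 3827–4389 in WT-emiRFP cells. The fall was steeper in WT-mCherry cells (difference of log2 fold changes -0.65 ± 0.089, edgeR adjusted p = 0.046). Kit, a receptor tyrosine kinase, rose from 1111–1145 to 2348–2481 and from 705–748 to 2221–2288 in the same order (-0.53 ± 0.075, edgeR adjusted p = 0.046). Neither gene was called without replicate 1 or without replicate 2, nor Enpp2 with all 69 libraries, nor Kit without replicate 3. For T the change was 9.48 ± 0.16 in WT-mCherry and 9.86 ± 0.16 in WT-emiRFP cells, with a 95% interval of the difference of -0.86 to 0.10.

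Nanog differed between the clones at the start. Its counts went from 4385–4532 to 11808–12536 in WT-mCherry and from 3109.5–3152 to 10786–12377 in WT-emiRFP cells. The clones did not overlap at 48 h and overlapped at 72 h. The difference of its change (-0.41 ± 0.079, edgeR adjusted p = 0.18) missed the threshold, and had an edgeR adjusted p of 0.02 with the block. Cdkn1a changed by 2.75 ± 0.069 in WT-mCherry and by 2.58 ± 0.068 in WT-emiRFP cells.

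Which of these changes differed in cells without p53 was tested against p53KO-emiRFP cells over the same 24 h. Genotype, subclone, neighbours and the numbers of cells seeded differed together in this comparison, and the WT libraries are those of the comparisons above. Trp53 counts in p53KO-emiRFP cells were 1761–1904 at 48 h and 1562–1916 at 72 h, against 15255–16714 at 48 h and 14885–17299 at 72 h in WT-emiRFP cells. The change was higher in p53KO-emiRFP cells for 258 of 18575 genes (1.39%) and lower for 401 (2.16%). With the replicate number as a block the counts were 877 (4.72%) and 851 (4.58%). They were 133 and 239 with all 69 libraries, 52 and 75 without replicate 1, 87 and 124 without replicate 2, and 150 and 214 without replicate 3.

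The streak response was present without p53. T rose from 63.7–95.6 to 40746–44984 in p53KO-emiRFP cells, a log2 fold change of 9.10 ± 0.16 against 9.86 ± 0.16 in WT-emiRFP cells. The difference (-0.76 ± 0.25, edgeR adjusted p = 0.11, 95% interval -1.28 to -0.23) passed the threshold only with the block (edgeR adjusted p = 0.017). For Axin2 the change was slightly smaller without p53 (-0.46 ± 0.084, edgeR adjusted p = 0.0016). Of 30 Wnt targets 1 had a higher and 4 a lower change, against 1.39% and 2.16% of all genes. Higher changes were called for 1 of 16 Wnt ligands and 2 of 15 Nodal pathway genes, and lower ones for 0 of either list. None of the 22 streak factors and none of the 17 Hox and Cdx genes tested had a called difference. Their median differences were nevertheless below 0, at -0.52 and -0.73, against -0.0022 over all genes. With the block 1 streak factor had a higher and 4 had a lower change, and 2 of the Hox and Cdx genes had a lower one. The shares over all genes with the block were 4.72% higher and 4.58% lower.

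Cdkn1a had the largest positive difference among the genes named. It rose from 69.5–109 to 5817–6485 in p53KO-emiRFP and from 2628–2695 to 15439–16908 in WT-emiRFP cells. The p53KO-emiRFP libraries were lower at both times, with no overlap, but their log2 fold change was larger (6.11 ± 0.094 against 2.58 ± 0.068, difference 3.53 ± 0.12, edgeR adjusted p = 5.9e-16). Differences of p53 targets went in both directions. Of 33 targets, Cdkn1a included, 3 had a higher and 7 a lower change without p53, with a median difference of -0.11. With the block the counts were 5 and 12. Mdm2 fell from 4141–4269 to 2491–2681 without p53 (-0.64 ± 0.083, edgeR adjusted p = 3.8e-05), and Zfp365 fell from 271–309.7 to 92.7–132 (-1.49 ± 0.13, edgeR adjusted p = 3.3e-07).

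Some genes that rose in WT cells did not rise without p53. Tap1, a peptide transporter of antigen presentation, rose from 757–771 to 1823–1991 in WT-emiRFP cells and fell from 249–306 to 197–203 in p53KO-emiRFP cells (-1.76 ± 0.12, edgeR adjusted p = 2.0e-09). Svop, a transporter-like gene of synaptic vesicles, rose from 125–127 to 1353–1553 in WT-emiRFP cells. In p53KO-emiRFP cells it was at 9.06–15.9 and 3.36–16.0, and the time points overlapped (-4.02 ± 0.44, edgeR adjusted p = 4.3e-06). Anks1b (-2.64), the T-box gene Tbx4 (-2.06) and Pglyrp1 (-1.86) also had lower changes without p53, and Kbtbd11 (1.76), Fut1 (1.63) and Jdp2 (1.35) higher ones. The log2 fold change of Anks1b was 0.05 in WT-emiRFP and -2.59 in p53KO-emiRFP cells, so its difference was not that of a rise in WT cells. Pglyrp1 was not called without replicate 1 (-1.22) or without replicate 2 (-1.40), and Fut1 was not called without replicate 1 (1.49).

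The stress response list differed in 1 direction. Of its 20 members 15 had a higher change in p53KO-emiRFP cells, none had a lower one, and the median difference was 0.53 against -0.0022 over all genes. With the block 18 were higher. Chac1 fell from 1500.5–1969.6 to 576–791 in WT-emiRFP cells and was at 1510.1–2087 and 1984–2311 at 48 h and 72 h in p53KO-emiRFP cells, with overlap (1.61 ± 0.18, edgeR adjusted p = 4.3e-06). Trib3 fell from 2517–3018 to 979–1247 and was at 2360.0–2961 and 2419–2722 in the same order (1.21 ± 0.14, edgeR adjusted p = 9.8e-06). In WT-mCherry cells Chac1 fell from 1318–1637 to 711–799 beside WT and from 1401–1763 to 1078–1192 beside p53KO-emiRFP cells, and Trib3 fell from 2188–2524 to 1122–1270.2 and from 2375–2822 to 1483–1786.

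Several naive factors differed in their change without p53. Of 16 members 8 had a lower log2 fold change and 1, Nanog (0.34), a higher one, with a median difference of -0.54. Among the 8, the log2 fold changes of Klf2 (-0.21), Nr0b1 (-0.59), Tcl1 (-1.56) and Zfp42 (-0.33) were below 0 in p53KO-emiRFP cells, and those of the other 4 were above 0. Gbx2 rose from 312–408 to 2061–2400.0 in p53KO-emiRFP and from 160.2–175 to 1959.9–2468 in WT-emiRFP cells (-1.11 ± 0.19, edgeR adjusted p = 8.2e-04), with overlap at 72 h. Prdm14 rose from 16.2–18.8 to 55.7–63.4 in WT-emiRFP cells and was at 25.2–30.6 and 22.4–36.4 in p53KO-emiRFP cells, with overlap (-1.68 ± 0.30, edgeR adjusted p = 0.0014). Esrrb rose in both (-0.52 ± 0.091, edgeR adjusted p = 0.001).

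**Figure D5:**
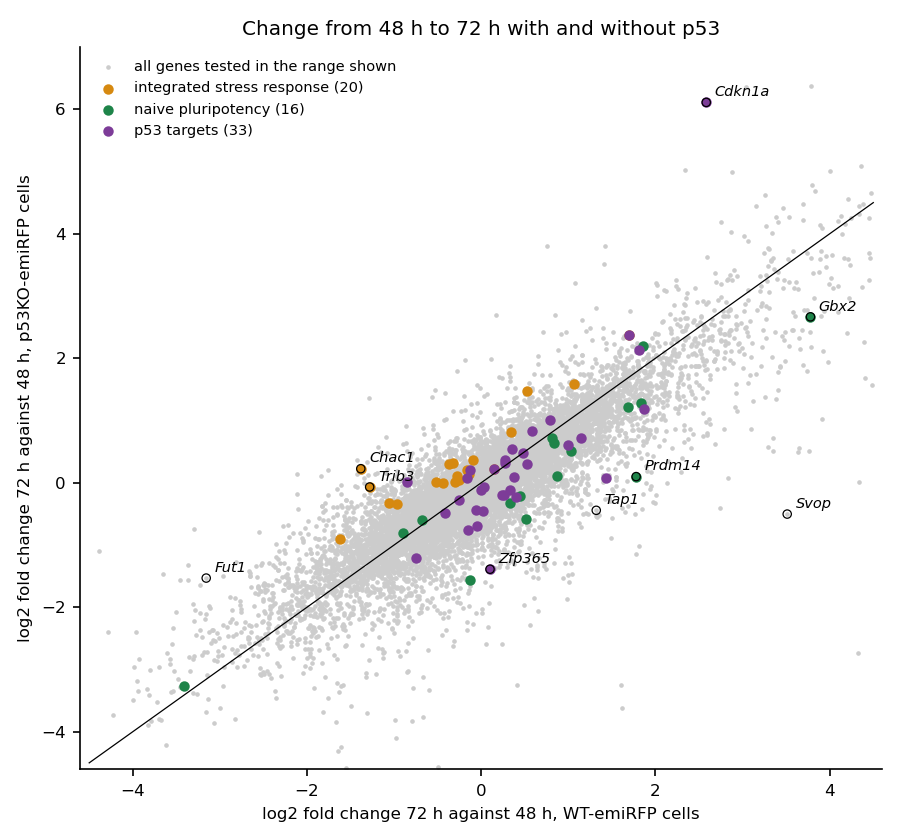
Log2 fold change of 72 h against 48 h in WT-emiRFP cells (x axis) and p53KO-emiRFP cells (y axis) for the genes within the range shown, with 3 gene lists coloured and the line of equal change. Cdkn1a lies far above the line, most genes of the integrated stress response lie above it, and Svop, Tap1 and Prdm14 lie below it.

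Whether the change of WT cells depended on their neighbours, which differed in genotype and in number seeded, was tested in WT-mCherry cells. The change of WT-mCherry cells beside p53KO-emiRFP and beside WT cells was called different for 0 of 18575 genes (0%) by edgeR, for 66 (0.355%) with the replicate number as a block and for 27 with a higher and 6 with a lower change by DESeq2, and 1100 had an unadjusted p under 0.05. T rose by 9.77 ± 0.16 beside p53KO-emiRFP and by 9.48 ± 0.16 beside WT cells, with a 95% interval of the difference of -0.26 to 0.83. For Cdkn1a the changes were 2.75 ± 0.069 and 2.75 ± 0.069, with an interval of -0.19 to 0.19. For Nanog they were 1.83 ± 0.054 and 1.45 ± 0.054 (0.38 ± 0.075, edgeR adjusted p = 0.082, and 0.0044 with the block).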

How the data were processed

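Poly-A RNA of sorted cells was sequenced with a stranded kit. Per the labels and the study's methods, the authors trimmed reads with Trim Galore 0.6.7, aligned them to GRCm38.p6 with STAR 2.7.11b and deposited raw counts per gene. The strand column that was kept is not given in the sources used here. The deposited counts of 12 libraries (44049258 to 60166505 per library) were used, beside 12 at the same times from WT+p53KO gastruloids and 24 of WT cells at other times. Libraries were scaled by DESeq2's median-of-ratios factors, computed on the whole set of 69. Genes passed edgeR's filterByExpr. edgeR 4.0.16 (R 4.3.3, limma 3.58.1) fitted the quasi-likelihood test with clone as covariate, and interactions were fitted over 24 libraries, all with Benjamini-Hochberg adjustment over all tested genes. Standard errors are the absolute log2 fold change divided by the root of F, and 95% intervals use the t quantile at the test's median degrees of freedom over genes. DESeq2 1.42.0 was an alternative. The fits were tested on simulated data.

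The members and the 32 gene lists were chosen with earlier results of these data known. Named were the 12 largest rises and 12 largest falls of at least 1 mean log2 CPM with the same direction in 6 of 6 pairs, up to 5 members per list and up to 3 of the opposite direction, genes always given, and up to 5 genes in each direction per interaction. Other list members were added for their role after their values were seen. Replicate numbers paired the samples: deviations from the group means of the same clone and number at the 2 times correlated with r from 0.22 to 0.397 over 13537 genes, and those of the 2 clones at the same time with r from 0.0514 to 0.57. Promoter sequences came from RefSeq on GRCm38.p6. No replicate pair shared the count of more than 6.243% of genes, and each library was used as its own sample. The study describes replicates as independent experiments. Some genes are not reported here.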

Additional observations from a re-analysis of the deposited data

Results flagged for a closer look

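The tests of the difference between groups found these results. Between the WT clones the change differed for 2 genes, both with a lower change in WT-mCherry cells, Enpp2 (difference -0.65 on the log2 scale) and Kit (-0.53). Each was not called in 3 of 8 alternatives.

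Between p53KO-emiRFP and WT-emiRFP cells the change was higher without p53 for 258 genes and lower for 401. Among called genes of at least 1 mean log2 CPM, the largest higher differences were those of Cdkn1a (3.53), Kbtbd11 (1.76), Fut1 (1.63), Chac1 (1.61) and Jdp2 (1.35). The largest lower ones among the same genes were those of Svop (-4.02), Anks1b (-2.64), Tbx4 (-2.06), Pglyrp1 (-1.86) and Tap1 (-1.76). Fut1 was not called in 1 of 8 alternatives. Pglyrp1 was not called in 2 and ranged from -3.10 to -1.22.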

How the results depend on the processing

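The counts of genes changed from 48 h to 72 h stayed within 1.5 times of 5946 higher and 6147 lower in every alternative but the minimum fold, which gave 1010 and 746 by construction. They were 5307 to 5618 higher and 5375 to 5816 lower without 1 replicate number, 6287 and 6538 with the replicate number as a block, and 5912 and 5630 with both clones of a replicate number summed. TMM scaling gave 6292 and 5762. Of 221 tested genes named by the rules given above 214 were called, 193 of them in every alternative other than the minimum fold. List members added after their values were seen are not in this count. Beside the differences of change given here and in the report, the block moved no call among these 221 genes other than that of Lefty2, which it called.

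The interactions moved more, and the cause was not tested. Between the clones, 0 genes were higher and 2 lower, and the counts were 54 and 48 without a filter, 25 and 35 with the block, 19 and 30 by DESeq2, 1 higher with all 69 libraries, and 0 to 3 lower without 1 replicate number. For p53KO-emiRFP cells they were 877 and 851 with the block, 390 higher by DESeq2, 133 and 239 with all 69 libraries, and 52 to 150 higher and 75 to 214 lower without 1 replicate number, the lowest without replicate 1. For the neighbours they were 23 and 44 without a filter, 48 and 18 with the block and 27 and 6 by DESeq2.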
